A study of Callithrix jacchus with 5 samples.

Results

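The genes described here are 4 transcription factors that mark the first steps out of pluripotency: TBXT, also called Brachyury, and FOXA2, GATA4 and HNF4A. They were taken as a named list and found by matching marmoset Ensembl gene identifiers to symbols, and each matched 1 of the 30811 identifiers in the count table. RNA was sequenced from cultures of a small New World primate, the common marmoset (Callithrix jacchus). The 5 libraries are 1 of fibroblasts (title E01F, P number 1), 3 of embryonic stem (ES) cells and 1 of induced pluripotent stem (iPS) cells. The ES libraries come from the lines No40 (P number 63), DSY127 (P number 17) and No20 (P number 45), here ES lines 1, 2 and 3, and each line is 1 library. By the series title, the iPS cells were made from fibroblasts by RNA-based reprogramming, and whether the sequenced fibroblasts were their parents is not given in the labels. No treatment, genotype or differentiation step is given for any library, so the question put to the data was which pluripotent culture carries transcripts of these lineage factors on its own.

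In the embryo, TBXT switches on in cells that enter the primitive streak, where mesoderm and definitive endoderm form, under NODAL and WNT signals. FOXA2 is a pioneer factor of the anterior streak, the node and the endoderm, able to open closed chromatin for other factors. GATA4 is a zinc finger factor of primitive endoderm and of the heart and gut, and HNF4A is a nuclear receptor that drives liver, gut and visceral endoderm genes such as those of the apolipoproteins. Undifferentiated ES and iPS cultures often hold some cells that have begun to differentiate. In bulk RNA, a few cells with much transcript and many cells with little cannot be told apart.

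In the coordinates of the files, for which the sources used here name no genome build, TBXT (ENSCJAG00000012508) spans 167222055 to 167231350 on the minus strand of chromosome 4. FOXA2 (ENSCJAG00000005785) lies at 28309401 to 28314117 on the minus strand of chromosome 5, and HNF4A (ENSCJAG00000017746) at 38523257 to 38557052 on its plus strand. GATA4 (ENSCJAG00000004032) lies at 6792397 to 6843987 on the minus strand of chromosome 13. The counted exons sum to 1586 bases for TBXT, 2607 for FOXA2, 1152 for GATA4 and 3236 for HNF4A. An unnamed model overlaps GATA4 on the same strand, with at most 0.0813 CPM in any library, and another overlaps HNF4A, with no count. Reads shared with them may be missing from these genes.

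Total counts were 34111715 to 58601185 in the fibroblast and ES libraries and 5746449 in the iPS library. A count of 3 equals 0.061 to 0.0834 CPM in the first 4 libraries and 0.507 CPM in the iPS library (CPM are counts scaled to a common library total, adjusted by TMM factors). The labelled cell types were checked on POU5F1, NANOG, SOX2, LIN28A and SALL4, the 5 measured of 8 pluripotency markers. Their summed level was 2201 to 2939 CPM in the 4 pluripotent libraries and 2.96 CPM in the fibroblast library. The 7 measured of 10 fibroblast markers summed to 71135 CPM in the fibroblasts, 1320 to 2484 CPM in ES lines 1 to 3 and 10674 CPM in the iPS library. Most of the iPS sum came from COL1A1, COL1A2 and COL3A1, at 4922, 3447 and 1684 CPM. FAP was also above the mean of the ES lines there. VIM, DCN and PDGFRB were below that mean, at 560, 6.59 and 40.1 CPM against 706, 11.2 and 67.5 CPM.

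TBXT was the most uneven of the 4 between pluripotent cultures. It stood at 11.0 CPM in ES line 1, 115 CPM in ES line 2, 9.31 CPM in ES line 3, 38.7 CPM in the iPS library and 0.042 CPM in the fibroblast library. These are 540, 4133, 407, 229 and 2 reads, and the 95% exact Poisson intervals of ES line 2 (111 to 119 CPM) and of the iPS library (33.9 to 44.1 CPM) meet no other. ES line 2 was therefore highest, the iPS library second, and ES lines 1 and 3 lay close together. The step from ES line 2 to the iPS library was 2.97-fold (95% counting interval 2.6 to 3.41), that from the iPS library to ES line 1 was 3.53-fold (3.01 to 4.13), and that from ES line 1 to ES line 3 was 1.18-fold (1.03 to 1.34). All such intervals cover counting error only, since no line has a second library.

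FOXA2 followed another order. It stood at 5.71 CPM in ES line 1, 8.48 CPM in ES line 2, 11.1 CPM in ES line 3 and 2.70 CPM in the iPS library, with no read in the fibroblast library. ES line 3 was highest and the iPS library, with 16 reads, lowest. Neighbours in this order were 1.31-fold (1.13 to 1.51), 1.49-fold (1.26 to 1.75) and 2.11-fold (1.28 to 3.74) apart by counting error alone.

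GATA4 stood at 5.28 CPM in ES line 1, 9.85 CPM in ES line 2, 3.59 CPM in ES line 3 and 7.94 CPM in the iPS library, again with no fibroblast read. ES line 2 and the iPS library were not separable by counting error, at a ratio of 1.24 (0.912 to 1.72), and both lay above ES lines 1 and 3.

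HNF4A stood at 5.77 CPM in ES line 1, 16.2 CPM in ES line 2, 9.58 CPM in ES line 3 and 6.42 CPM in the iPS library, with no fibroblast read. ES line 2 was highest, at 1.69 times ES line 3 (1.48 to 1.92). The iPS library and ES line 1 were not separable, at a ratio of 1.11 (0.772 to 1.57). Across the set, ES line 2 held the highest level of TBXT, GATA4 and HNF4A and ES line 3 that of FOXA2, while the lowest level fell to ES line 3 for TBXT and GATA4, to ES line 1 for HNF4A and to the iPS library for FOXA2. TBXT and GATA4 shared 1 order of the pluripotent libraries, and no single library was highest for all 4.

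**Figure D1:**
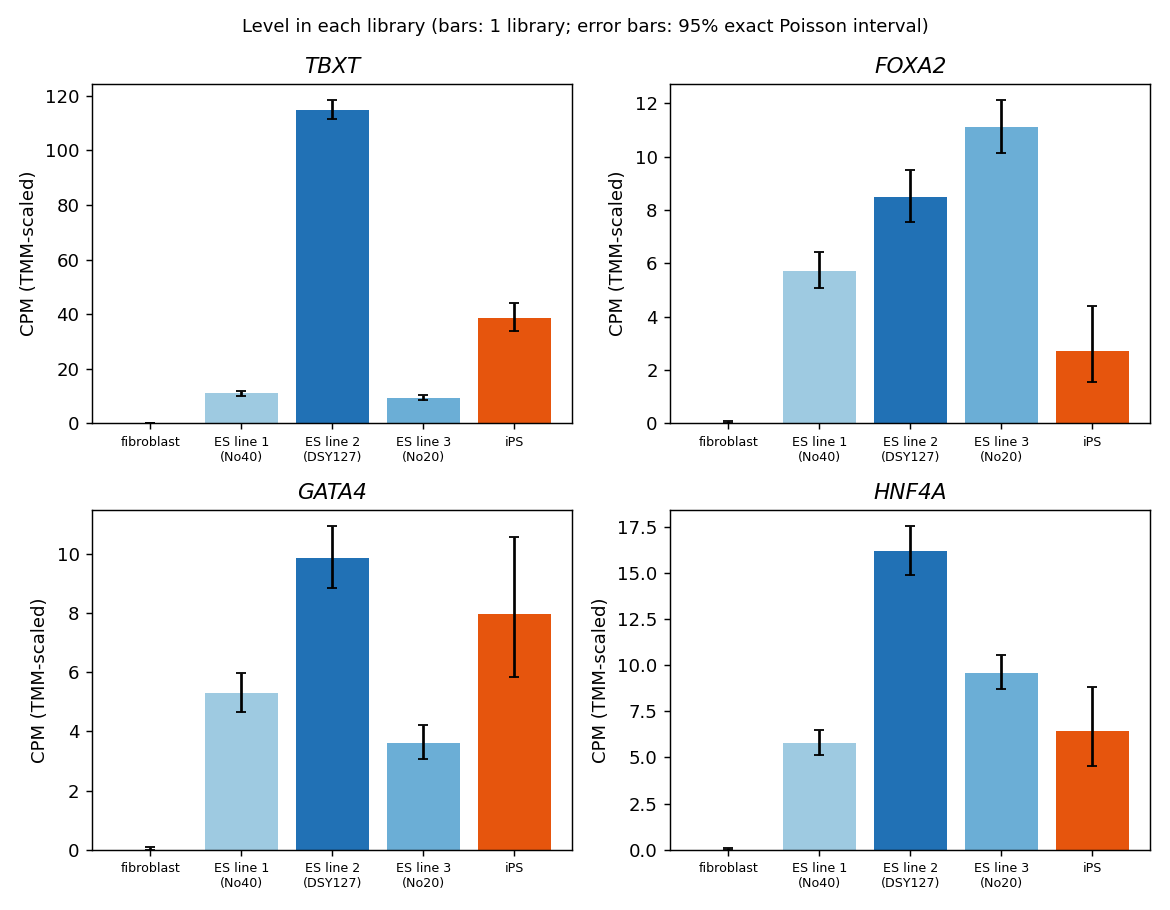
Level of each gene in the 5 libraries, in CPM on TMM-scaled totals, with a separate linear axis from 0 for each gene. Bars are single libraries and error bars are 95% exact Poisson intervals. TBXT reaches 115 CPM in ES line 2 and 38.7 CPM in the iPS library, whereas FOXA2 is highest in ES line 3 at 11.1 CPM and lowest of the pluripotent libraries in the iPS library at 2.70 CPM.

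Set against gene length, TBXT in ES line 2 reached 72.5 CPM per kilobase of exon, above 93.6% of the genes with a read in that library, and 24.4 CPM per kilobase in the iPS library (78.1%). In ES lines 1 and 3 it stood at 6.92 and 5.87 CPM per kilobase, near the middle of the detected genes. FOXA2 ranged from 1.04 CPM per kilobase in the iPS library to 4.25 in ES line 3, GATA4 from 3.12 in ES line 3 to 8.55 in ES line 2, and HNF4A from 1.78 in ES line 1 to 4.99 in ES line 2. Per kilobase of exon, TBXT had the highest level of the 4 in each pluripotent library, and GATA4 was above FOXA2 and HNF4A in ES lines 1 and 2 and the iPS library, and below FOXA2 in ES line 3. The SD of log2 CPM over the 4 pluripotent libraries was 1.70 for TBXT, larger than in 93.9% of 17083 genes tested, against 0.88 for FOXA2 (74.9%), 0.64 for GATA4 (61.8%) and 0.67 for HNF4A (64.0%). Only TBXT therefore lay in the upper tail of spread between lines.

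To ask which pluripotent library stands apart, each was compared with the other 3 in an edgeR quasi-likelihood fit, which takes its spread from those 3 libraries. None of the 4 genes passed at an adjusted p under 0.05 in any of the 4 comparisons, which share libraries. The background was equally low: 0% of 17083 genes were called for ES line 1, 0% for ES line 2, 0% for ES line 3 and 0.158% for the iPS library. At an unadjusted p under 0.05 there were 652, 215, 1327 and 1474 genes, or 3.82%, 1.26%, 7.77% and 8.63%, and of the 4 genes only TBXT in ES line 2. DESeq2 called 21, 16, 448 and 434 genes and limma voom 0, 0, 0 and 5, none of the 4 among them.

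By unadjusted p, TBXT in ES line 2 came nearest. It stood at 115 CPM there against 19.7 ± 16.5 CPM (SD, n = 3) in the others. Its fitted log2 fold change was 2.57 ± 0.76 (SE, edgeR adjusted p = 0.999975, or 0.0122 before adjustment). By p it ranked 46 of 17083 genes. Over the 10 alternatives run, the log2 fold change was 2.22 to 3.49, and TBXT passed in none. The largest value came without the iPS library, which has the second-highest TBXT level. HNF4A in ES line 2 stood at 16.2 against 7.26 ± 2.04 CPM (log2 fold change 1.15 ± 0.59, edgeR adjusted p = 0.999975). GATA4 had 0.83 ± 0.70 and FOXA2 0.37 ± 0.85 there. ES line 2 also has the lowest P number of the ES lines, and with 1 library per line the P number and the line cannot be told apart.

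ES line 3 showed the opposite for TBXT, with a log2 fold change of -2.56 ± 1.22 (edgeR adjusted p = 0.707), and values of 0.95 ± 0.68 for FOXA2, -1.10 ± 0.66 for GATA4 and 0.01 ± 0.71 for HNF4A. For ES line 1 all 4 fitted values were negative, from -2.31 ± 1.37 for TBXT to -0.40 ± 0.87 for FOXA2. The iPS library differed from the ES lines by -0.21 ± 1.38 for TBXT, -1.63 ± 0.72 for FOXA2 (edgeR adjusted p = 0.601), 0.36 ± 0.72 for GATA4 and -0.70 ± 0.73 for HNF4A. The TBXT values rest on ES line 2 as a reference. Without that line TBXT was at -1.40 in ES line 3, -1.17 in ES line 1 and 1.96 in the iPS library (edgeR adjusted p = 0.844, 0.999983 and 0.323). The SEs of 0.59 to 1.38 leave room for differences of several fold in either direction.

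**Figure D2:**
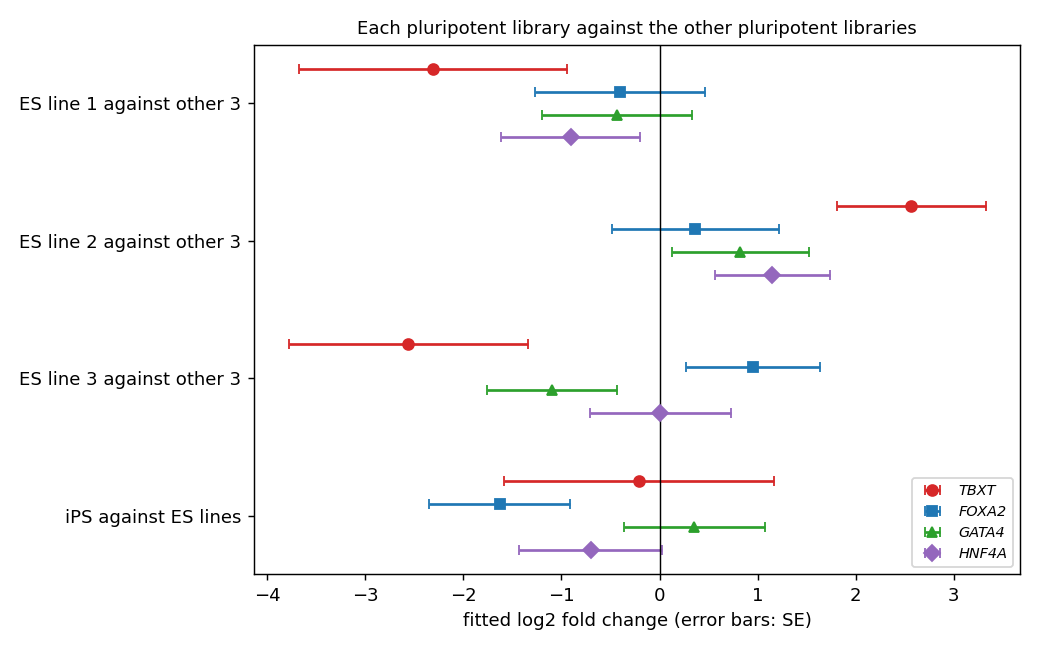
Fitted log2 fold change of each gene in 1 pluripotent library against the other 3, with its SE (edgeR quasi-likelihood fit). TBXT in ES line 2, at 2.57 ± 0.76, is the farthest above 0, and no value passed the adjusted threshold.

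Most genes of the primitive streak had their highest level in ES line 2, with TBXT, or in ES line 3, but not all of these were clearly apart. Of 22 genes on a list of primitive streak and mesendoderm genes, 14 have counts here and 12 were tested, TBXT included. Of the 12, 6 were highest in ES line 2, 5 in ES line 3 and 1 in ES line 1. Of the 6, SP5, WNT3 and WNT8A, described below, stood close to their level in ES line 3. EOMES, a T-box factor that with TBXT starts the mesendoderm programme, stood at 5.95 CPM in ES line 1, 11.7 CPM in ES line 2, 67.1 CPM in ES line 3 and 2.54 CPM in the iPS library. It was highest in ES line 3, where TBXT was lowest, but ES line 1 had a similar TBXT level and little EOMES. MIXL1, a homeobox factor of the streak, stood at 3.94, 6.67, 24.7 and 3.21 CPM in the same order. EVX1, a homeobox factor of the posterior streak, stood at 0.528, 1.14, 11.3 and 0.169 CPM, the last being 1 read.

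CER1, a secreted antagonist of NODAL and WNT made by anterior endoderm, stood at 71.5 CPM in ES line 1, 23.8 CPM in ES line 2, 393 CPM in ES line 3 and 5.41 CPM in the iPS library. In ES line 3 against the other pluripotent libraries, EVX1, EOMES, MIXL1 and CER1 had log2 fold changes of 4.06 ± 0.82, 3.28 ± 0.67, 2.41 ± 0.55 and 3.53 ± 0.96. None passed in edgeR (adjusted p = 0.258, 0.277, 0.321 and 0.375), and all 4 passed in DESeq2 (adjusted p = 0.00163, 0.00195, 0.0102 and 0.0204) but not in limma voom. DESeq2 called 448 genes in that comparison. The 7 measured fibroblast markers had a median log2 fold change of -1.38 in the same comparison, with 3 positive. Of these, VIM, an intermediate filament gene of mesenchymal cells, stood at 1240 CPM in ES line 3 against 479 ± 70.9 CPM, while COL1A1, COL1A2 and COL3A1, collagen genes, were below the mean of the others, which the iPS library raised. The part of such cells in these values was not tested.

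The upstream signals had other patterns. NODAL, the ligand that induces the streak, stood at 32.1, 61.7, 94.0 and 58.5 CPM in ES lines 1, 2 and 3 and the iPS library, and FOXH1, a partner of its SMAD effectors, at 78.3, 100.1, 76.8 and 54.8 CPM. WNT3, a streak-inducing ligand, stood at 0.935, 5.37, 5.17 and 1.01 CPM, and WNT8A, another WNT ligand, at 0.996, 7.31, 6.56 and 2.37 CPM. SP5, a direct WNT target, stood at 0.528, 3.36, 3.22 and 1.35 CPM. These 3 WNT-related genes stood close together in ES lines 2 and 3, which differ 12.3-fold in TBXT, and had their lowest values in ES line 1. In the iPS library WNT3, WNT8A and SP5 had only 6, 14 and 8 reads. WNT3 was about level in ES line 1 and the iPS library. MESP1, a factor of early mesoderm that follows TBXT in the embryo, stayed at or under 0.137 CPM in every library. MSGN1, a presomitic mesoderm factor, stayed at or under 0.122 CPM. Both had no read in the iPS library, where 3 reads equal 0.507 CPM, so such low levels cannot be resolved there. TBX6, a T-box factor of paraxial mesoderm, stood between 0.862 CPM in ES line 2 and 2.68 CPM in ES line 1.

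**Figure D3:**
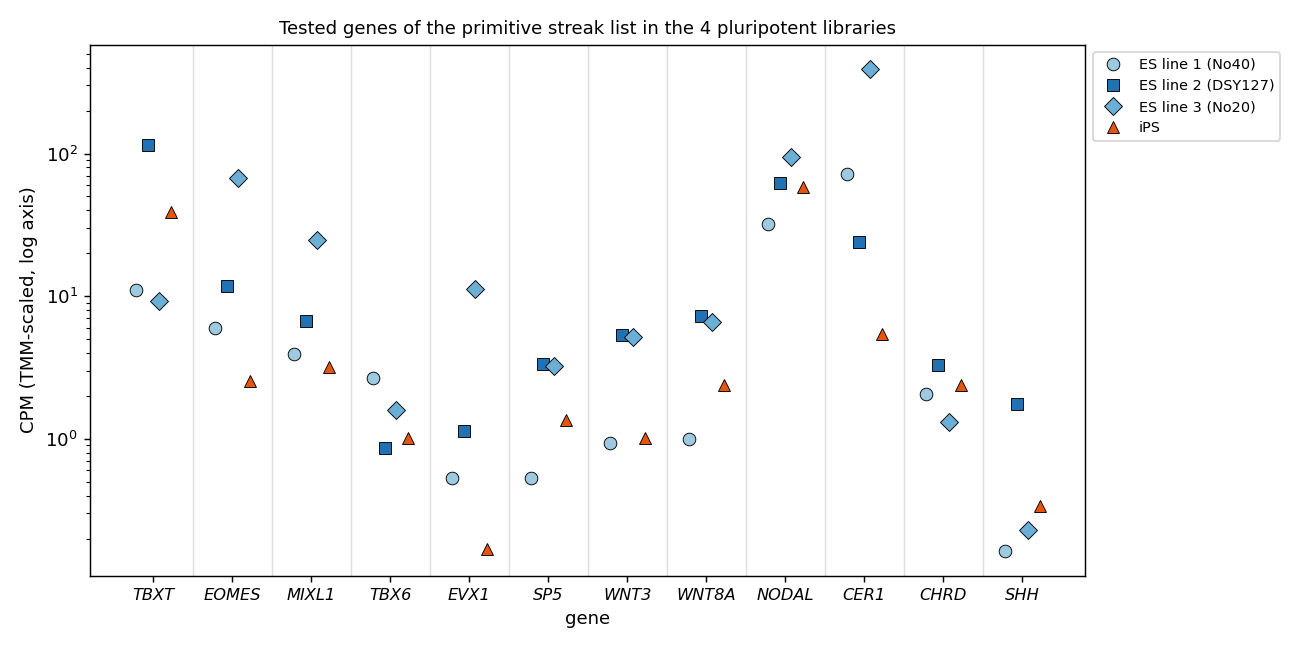
Levels of the 12 tested genes of the primitive streak list in the 4 pluripotent libraries, in CPM on a log axis, with 1 point per library. TBXT (115 CPM) is among the 6 genes highest in ES line 2, with SP5, WNT3, WNT8A, CHRD and SHH, whereas EOMES (67.1 CPM), MIXL1 (24.7 CPM), EVX1 (11.3 CPM), NODAL (94.0 CPM) and CER1 (393 CPM) are highest in ES line 3 and TBX6 in ES line 1. SP5, WNT3 and WNT8A stand close together in ES lines 2 and 3.

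Over all 17083 genes tested, the highest level lay in ES line 2 for 21.6%, in ES line 3 for 24.5%, in ES line 1 for 27.4% and in the iPS library for 26.5%. The median log2 fold change of the list was 0.40 in ES line 2, 0.88 in ES line 3, -2.14 in ES line 1 and -1.06 in the iPS library, beside -0.07, -0.11, -0.04 and -0.10 for all genes. By edgeR 0 of the 12 were called in each of these comparisons. At an unadjusted p under 0.05, TBXT and SHH were higher in ES line 2, 4 genes were higher in ES line 3, 2 were lower in ES line 1 and 1 was lower in the iPS library. SHH, a ligand of the node and notochord, stood at 1.75 CPM in ES line 2 and at or under 0.338 CPM in the other pluripotent libraries.

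Among endoderm transcription factors, 8 of 15 listed have counts, and FOXA2, GATA4 and HNF4A are 3 of them. GATA6, which acts with GATA4 in primitive endoderm, stood at 16.4 CPM in ES line 1, 38.3 CPM in ES line 2, 89.9 CPM in ES line 3, 4.73 CPM in the iPS library and 37.6 CPM in the fibroblast library. It was therefore highest where GATA4 was lowest, and, unlike GATA4, it was present in fibroblasts. HNF4G, the paralogue of HNF4A, stood at 3.54, 3.78, 5.03 and 1.69 CPM in the pluripotent libraries. HHEX, a homeobox factor of anterior endoderm, stood at 5.04, 5.26, 12.8 and 2.70 CPM.

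All 8 were tested, and edgeR called 0 of them in any pluripotent comparison. At an unadjusted p under 0.05, GATA6 and HHEX were higher in ES line 3 and GATA6 was lower in the iPS library (log2 fold change -3.34 ± 1.08, edgeR adjusted p = 0.417). DESeq2 called that last difference (adjusted p = 0.00589) and limma voom did not. In that comparison DESeq2 called far more genes than edgeR over all genes tested, as given above. The highest level lay in ES line 2 for 4 and in ES line 3 for 4 of the 8, and in neither of the other libraries. The list's median log2 fold change was 0.39 in ES line 2, 0.41 in ES line 3, -0.46 in ES line 1 and -1.39 in the iPS library.

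Products of visceral endoderm and liver, many of them targets of HNF4A and FOXA2, had another pattern. Of 21 listed, 17 have counts and 13 were tested. AFP, the fetal serum protein made by visceral endoderm, and APOC3 had no read in any library, and ALB, which encodes albumin, had at most 5 reads. APOA1, the main protein of high-density lipoprotein, stood at 5.91 CPM in ES line 1, 40.8 CPM in ES line 2, 16.9 CPM in ES line 3 and 12.3 CPM in the iPS library, the order of HNF4A. APOB, of low-density lipoprotein, stood at 16.8, 44.1, 6.95 and 32.8 CPM, the order of TBXT and GATA4. These matches of order were seen after the fact, and the share of all genes with each order was not counted. For GATA4 and HNF4A, part of the order was not separable by counting error, as given above. SERPINA1, which encodes alpha-1 antitrypsin, stood at 8.12 CPM in ES line 2 and 4.40 CPM in the iPS library but at 0.0813 and 0.0915 CPM in ES lines 1 and 3, or 4 reads each. MTTP, which loads lipid onto APOB, stood at 0.244, 2.06, 0.366 and 3.38 CPM.

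ES line 2 and the iPS library, the libraries with most TBXT, were also those with most APOB, SERPINA1 and MTTP, genes picked after their values were seen. Other members of the list did not share this. TF, VTN and RBP4 were lowest in the iPS library, at 367, 79.6 and 5.58 CPM. The highest level lay in ES line 2 for 6, in the iPS library for 6 and in ES line 3 for 1 of the 13. By edgeR 0 of 13 were called in any pluripotent comparison, and at an unadjusted p under 0.05 APOA1 was higher in ES line 2 while APOB and FGA, a fibrinogen chain, were lower in ES line 3. DESeq2, with the larger total over all genes given above, called 2 of the list lower in ES line 3, and limma voom 0. The list summed to 572 CPM in ES line 3, 653 CPM in ES line 1, 846 CPM in ES line 2 and 524 CPM in the iPS library, most of it from TF, which encodes transferrin, at 367 to 593 CPM.

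**Figure D4:**
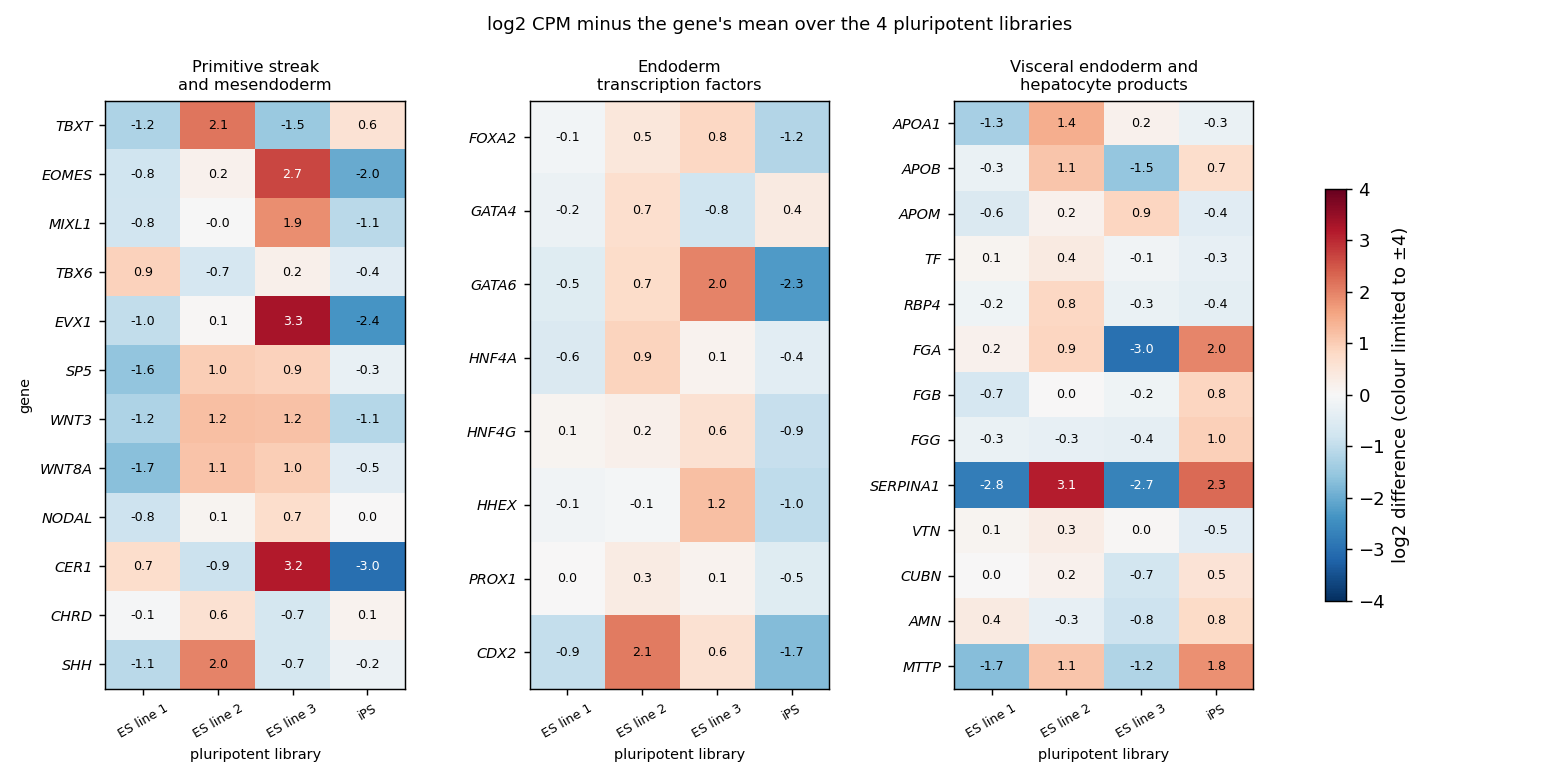
Log2 CPM (prior count 2) minus the mean over the 4 pluripotent libraries, for the tested genes of 3 lists. Rows are genes, columns are single libraries, and red is above and blue below the gene's mean. TBXT is at 2.1 in ES line 2 and -1.5 in ES line 3, where EOMES, EVX1 and CER1 are at 2.7, 3.3 and 3.2, and SERPINA1 is at 3.1 in ES line 2 and 2.3 in the iPS library.

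Transcripts of proteins that work with these factors were counted too. ZFPM1 and ZFPM2, the FOG cofactors of GATA factors, stood at 1.81 to 2.63 CPM and 2.74 to 7.44 CPM in the pluripotent libraries. NR0B2, a corepressor of HNF4A, was at or under 0.0556 CPM, with no read in the iPS library, where 3 reads equal 0.507 CPM. EP300 and CREBBP, histone acetyltransferases and general coactivators, stood at 128 to 266 CPM and 73.6 to 123 CPM, and SMAD2, an effector of NODAL, at 30.4 to 38.3 CPM. Of 12 such genes 11 were tested, and edgeR called 0 in any pluripotent comparison. At an unadjusted p under 0.05 there was 1, NCOA1, a nuclear receptor coactivator, lower in ES line 3. DESeq2 gave it adjusted p = 0.0443, and limma voom did not call it.

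Markers of trophoblast and amnion, the latter also known to carry TBXT in primates, did not move as 1 group. Of 11 listed, 7 have counts, and 4 were highest in ES line 2, 2 in the iPS library and 1, TEAD4, in ES line 3. They summed to 382 CPM in ES line 2 and 404 CPM in the iPS library, against 132 CPM in ES line 1 and 70.5 CPM in ES line 3, and TFAP2A and KRT7 made up most of the iPS sum. The median log2 fold change was 1.72 in ES line 2 but -0.37 in the iPS library. KRT7, a keratin of simple epithelia and trophoblast, stood at 14.2 CPM in ES line 1, 241 CPM in ES line 2, 11.8 CPM in ES line 3 and 68.8 CPM in the iPS library. That is again the order of TBXT and GATA4, a match seen after the fact, and the share of all genes with this order was not counted. GATA2, a trophoblast and blood factor, stood at 24.9 CPM in ES line 2 and at 1.69 to 7.09 CPM in the other pluripotent libraries, the iPS library being lowest. TFAP2A, an AP-2 factor of amnion and surface ectoderm, stood at 235 CPM in the iPS library against 7.5 ± 3.7 CPM over the 3 ES lines (log2 fold change 4.98 ± 0.55, edgeR adjusted p = 0.0397). With the fibroblast library in the fit, where 0.109% of 17462 genes were called, its edgeR adjusted p was 0.0507.

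VTCN1, an amnion and trophoblast surface protein, had no read in the iPS library, and GABRP stood at 0.676 CPM there against 13.5 CPM in ES line 1 and 16.2 CPM in ES line 2. TFAP2C, another AP-2 factor, was level in ES lines 1 and 2 and the iPS library, at 55.3 to 57.0 CPM, and stood at 3.66 CPM in ES line 3. By edgeR 0 of 7 were called for ES lines 1, 2 and 3, and 1, TFAP2A, for the iPS library. DESeq2, with the larger totals over all genes given above, called 2 of the 7 lower in ES line 3 and 1 higher in the iPS library. With limma voom 0 were called in either comparison, so TFAP2A did not pass there. At an unadjusted p under 0.05, KRT7 (log2 fold change 2.95 ± 0.89) and GATA2 (2.59 ± 0.76) were higher in ES line 2. The part of such cells in the TBXT level was not tested.

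The summed level of neural markers was also highest in ES line 2. Of 7 listed, 5 have counts, and they summed to 1102 CPM there against 533 to 774 CPM in the other pluripotent libraries. Most of it came from NES, an intermediate filament gene of neural progenitors and endothelium, at 741 CPM in ES line 2 and 270 to 551 CPM in the others. The highest level lay in ES line 2 for 3 of the 5. NEUROG2, a neurogenic factor, had 32 reads in ES line 2 and at most 4 in another library, the 1 marker of the list higher there at an unadjusted p under 0.05. PAX6 was highest in the iPS library at 5.41 CPM and stood at 0.918 CPM in ES line 2. OTX2 was lowest in ES line 2, at 7.12 CPM against 10.6 to 12.1 CPM in the others. By edgeR 0 of 5 were called in any pluripotent comparison, and the part of such cells in the TBXT level was not tested.

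The summed level of genes of primitive endoderm, the tissue in which GATA4 acts early, and its basement membrane had an order other than GATA4. Of 10 listed, 9 have counts, and they summed to 4161 CPM in ES line 1, 3458 CPM in ES line 2, 2411 CPM in ES line 3 and 2122 CPM in the iPS library. The highest level lay in ES line 1 for 4 of the 9, among them LAMA1, a laminin chain, at 431 CPM, and COL4A1, a collagen IV chain, at 1699 CPM. COL4A1, at 745 to 1699 CPM, was the largest part of each sum. Single members differed from the sum. DAB2 stood at 153, 228, 96.3 and 265 CPM in ES lines 1, 2 and 3 and the iPS library. Like GATA4, it was higher in ES line 2 and the iPS library than in ES lines 1 and 3. LRP2, an endocytic receptor of visceral endoderm, stood at 19.2, 51.3, 2.70 and 15.2 CPM in the same order. It was highest, like GATA4 and HNF4A, in ES line 2. By edgeR 0 of 9 were called in any pluripotent comparison. At an unadjusted p under 0.05, PDGFRA was higher and LRP2, NID2 and DAB2 were lower in ES line 3, and 3 genes were lower in the iPS library. DESeq2, with the larger total over all genes given above, called 1 of the list lower in ES line 3, and limma voom 0.

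Of 11 mesoderm genes 3 have counts. KDR, a VEGF receptor also of endothelium, stood at 71.0 to 90.8 CPM in the pluripotent libraries, and TBX5 and MSX1 stayed at or under 0.435 CPM there. TBX5 and MSX1 had no read in the iPS library, where 3 reads equal 0.507 CPM. Endothelial markers, 6 of 6 with counts, summed to 247 to 455 CPM over the pluripotent libraries and were highest in ES line 3. Neither list had a gene called by edgeR in a pluripotent comparison. Among fibroblast markers, COL1A2, a collagen chain, was called for the iPS library, at 3447 CPM where the 3 ES lines had 250 ± 19.0 CPM (log2 fold change 3.79 ± 0.28, edgeR adjusted p = 0.0192, or 0.0205 with the fibroblast library in the fit).

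The fibroblast library gave the background. TBXT had 2 reads there, so the mean of the ES lines, 45.1 ± 60.5 CPM, was 1073 times the fibroblast level (95% Poisson interval of the fibroblast count 297 to 8860). Without ES line 2 the ratio was 241. TBXT passed as lower in fibroblasts (edgeR adjusted p = 0.0428) but not without ES line 1 (0.0751) or with limma voom (0.228). FOXA2, GATA4 and HNF4A, with no fibroblast read, were each lower there than the ES mean, at least 134-fold for FOXA2, at least 99.0-fold for GATA4 and at least 167-fold for HNF4A, against a floor of 3 reads in that library (edgeR adjusted p = 0.00485, 0.00813 and 0.00609). The same bound against the lowest pluripotent library was 42.9-fold, 57.0-fold and 91.6-fold. These bounds take the pluripotent level as exact. The first rests on 16 FOXA2 reads in the iPS library, at 2.70 CPM (95% Poisson interval 1.55 to 4.39 CPM). In this comparison 18.1% of 17462 genes were called, 9.28% as lower, and these genes entered the test only through their pluripotent reads. All 4 were therefore detected in every pluripotent library, each above the limit that 3 reads set.

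Members of the other lists were called in the fibroblast comparison in both directions. Of the 12 tested streak genes 5 were called lower in fibroblasts, SP5, WNT8A, NODAL and CER1 beside TBXT, and of the 8 endoderm factors 4, HNF4G beside the 3 described. Of the visceral endoderm and liver products APOA1, APOB, FGG, TF and VTN, which encodes vitronectin, were lower, and RBP4, the retinol carrier, was higher, at 99.2 CPM where the mean of the ES lines was 8.67 CPM. Of the primitive endoderm list LAMA1, COL4A1 and NID2 were lower, while PDGFRA and DAB2 were higher. PPARGC1A, a coactivator, was higher and FOXH1 lower. MSX1 and PAX6 were higher, and KDR, NES, OTX2, PECAM1, VWF and ESAM were lower. All 5 pluripotency markers were lower, and COL1A1, COL1A2, COL3A1, VIM, DCN and FAP, 6 of 7 fibroblast markers, were higher. In all, 8.8% of 17462 genes were called higher, and no trophoblast or amnion marker was called.

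The levels of genes near TBXT are given for description. No gene model overlaps it, and the nearest with a symbol are PRR18, at 140995 bases, and PDE10A, at 496189 bases. PRR18 stood at 0.345 to 0.676 CPM in the pluripotent libraries, and PDE10A, a phosphodiesterase, at 10.5 CPM in ES line 2 and 9.81 CPM in ES line 3. Over the 8 tested genes within 1000000 bases, the median log2 difference of ES line 2 from the mean of the 4 pluripotent libraries was 0.10, against 2.14 for TBXT, and none reached it. Over the 926 tested genes of chromosome 4 it was 0.01. For HNF4A in ES line 2, 3 of 29 neighbours reached its difference of 0.89, and for GATA4, 2 of 18 reached 0.66. The share of all tested genes that reach these differences was not counted. TBXT was more spread than 93.9% of genes tested, so most genes would fall short of it wherever they lie. A cause shared by neighbouring genes was not tested.

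By profile over all 5 libraries, measured as the root-mean-square difference of log2 CPM centred on each gene's mean, the named genes most like TBXT were GC, which encodes the vitamin D binding protein (0.51), SLC34A2, a phosphate transporter (0.64), and APOB (0.65). No named gene of 11463 came within 0.5 of TBXT. For FOXA2 these were COL26A1 (0.17), AFAP1L2 (0.33) and BICDL1 (0.36), with 16 genes within 0.5. For GATA4 they were FAM181B (0.20), KDF1 (0.22) and CKMT1A (0.25), with 39 within 0.5. For HNF4A they were PLEKHG4B (0.24), TLL2 (0.28) and MCF2 (0.28), with 20 within 0.5. GC stood at 7.09 CPM in ES line 1, 40.5 CPM in ES line 2, 2.70 CPM in ES line 3 and 28.1 CPM in the iPS library, with no fibroblast read. Among the 4 factors themselves, FOXA2 and HNF4A were closest (0.57), then GATA4 and HNF4A (0.61), and TBXT and FOXA2 were farthest apart (1.66). With 5 libraries, of which the fibroblast value sets most of each profile, these are descriptions of the libraries.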

How the data were processed

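RNA came from a Qiagen RNeasy Mini kit and was made into standard Illumina libraries, per the labels' protocols. The authors deposited raw counts per gene, as whole numbers, once in a series table and once in a file for each library, with identical values. The submitters' processing notes list featureCounts 1.5.2, STAR 2.5.3a and Trim Galore 0.4.0 without saying what each did. The sources used here name no genome build and no setting for strand, for multi-mapping reads or for genes that overlap.

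Of 30811 identifiers, 12660 matched a symbol. Of 133 entries in 11 gene lists, 93 matched, and the text gives how many of each list were measured. The 4 genes and the lists were chosen with earlier results of these data known, and 2 listed genes, taken out of their lists afterwards, are not reported here.

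The analysis used R 4.3.3, edgeR 4.0.16 (filterByExpr, TMM factors, estimateDisp, glmQLFit, glmQLFTest), limma 3.58.1 and DESeq2 1.42.0. The fibroblast library was compared with the ES lines in a fit of all 5 libraries (17462 genes), and each pluripotent library with the other 3 in fits of the 4 pluripotent libraries (17083 genes). Each fit has 2 residual degrees of freedom, a lone library is assumed to vary like the others, and p-values measure only the spread between these libraries, which may be technical. Adjusted p-values are Benjamini-Hochberg values across the whole fit, and a gene was called when its value was under 0.05. SEs are the fold change divided by the square root of the quasi-likelihood F. CPM use the TMM factors of the fit of all libraries, and log2 CPM a prior count of 2. Reads have no molecular identifiers, so intervals and floors (3 counts) cover counting error only. The code was tested on simulated counts.

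The 4 genes are named whatever their result. Other names follow a rule: list members that pass in any comparison (up to 6 of a list in each), list members at or near 0, and the 3 genes with a symbol most like each of the 4 by profile. List members that did not pass in a comparison (such as EOMES, MIXL1, EVX1, KRT7 and SERPINA1), and the neighbours of TBXT, were chosen after their values were seen. Alternatives were other scalings (RLE, upper-quartile, library totals only), no filter on low counts, DESeq2, limma voom, each reference library left out, the fibroblast library kept in the pluripotent fits and a prior count of 0.5.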

Additional observations from a re-analysis of the deposited data

How the results depend on the processing

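Of 232 refitted log2 fold changes of TBXT, FOXA2, GATA4 and HNF4A, 222 kept their direction and their side of the threshold, 2 no longer passed (TBXT in fibroblasts, as given above) and 8 changed sign, all of them without passing in either fit. For TBXT in the iPS library the sign changed with limma voom (0.84 with the fibroblast library in the fit, 0.85 without) and without ES line 2 (1.93 and 1.96, with values from -0.69 with 1 ES line left out in both fits). The others were FOXA2 in ES line 2 without the iPS library (-0.0071, against up to 0.98 with another library left out) and HNF4A in ES line 3 with upper-quartile factors (-0.0095), without ES line 1 (-0.26) and without the iPS library (-0.16), against 0.67 without ES line 2. The number of the 4 genes called was 3 to 4 in fibroblasts with 1 ES line left out, and 0 in each pluripotent comparison under all of the alternatives run. Counts over all genes moved more. The fibroblast count of 3157 became 4773 with DESeq2 and 1742 to 4550 with 1 ES line left out. The iPS count, 19 with and 27 without the fibroblast library in the fit, became 204 and 225 with no low-count filter, 416 and 434 with DESeq2, 5 and 5 with limma voom, and 0 to 268 and 0 to 266 with 1 ES line left out. The counts of 0 became 21 (ES line 1), 16 (ES line 2) and 448 (ES line 3) with DESeq2, 7 (ES line 2) and 95 (ES line 3) with no filter, and 0 to 0, 0 to 7 and 14 to 96 with 1 library left out. The causes were not tested. A prior count of 0.5 moved the log2 CPM range over pluripotent libraries of each of the 4 genes by less than the SD of the ES lines. No paired analysis was possible because the fibroblast and iPS groups have 1 library each. The iPS library is the shallowest and has 16 FOXA2 reads.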
